A study of Caenorhabditis elegans with 2 samples.

Results

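The histone genes of Caenorhabditis elegans were examined for calls of a chromatin immunoprecipitation sequencing experiment on the GFP-tagged protein F55B11.4. The members were the 72 protein-coding genes whose Ensembl symbol starts with his-, out of 19973 protein-coding genes on the nuclear chromosomes. No histone gene carried a call in the pooled list, against 1.83% of other genes of like length and 3.20% of all protein-coding genes. None had a peak in the authors' optimal set, against 0% and 0.13%. Calls of at least 1 replicate lay at 20 of the 72 genes (27.8%), against 39.8% of other genes of like length and 66.9% of all protein-coding genes. Of these 20, 19 were among the 32 members with under 50% repeated sequence in the gene and 500 bp to either side. That is 59.4% of them, against 42.1% of such genes of like length, and the split was chosen after seeing the data. These 32 members include longer genes. Other genes within their own lengths of 141 to 1576 bp were at 37.8% in replicate 1, against 37.5% of the members. In replicate 2 these shares were 27.8% and 43.8%. With repeats counted in the gene alone, 14 of the 20 were among the 19 members under 50%. That is 73.7% of the 19, against 43.8% of such genes of like length, and the 19 also include longer genes.

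The animals were whole young adult hermaphrodites of strain OP385, genotype unc-119(tm4063) III; wgIs385, in which an inserted transgene expresses F55B11.4 with a GFP-FLAG tag at its C terminus. Worms were synchronized by starvation as L1 larvae after bleaching, collected 65 hours later, and the tagged protein was recovered from sonicated chromatin with an anti-GFP antibody. The 2 libraries are biological replicates 1 and 2 of 1 group. The labels name no change of the worm's own F55B11.4 gene, the strain is 1 transgenic line, and whole animals mix all tissues. No untagged strain was analysed here.

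Histones are the proteins around which DNA is wrapped. The nucleosome core is built of H2A, H2B, H3 and H4, and the linker histone H1 binds where DNA enters and leaves it. Genes of the core histones of C. elegans lie mostly in small clusters of nearly identical copies that are used while DNA is replicated, whereas single genes with introns, such as those for the replacement histone H3.3, can be used outside S phase.

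The copies are so alike that many short stretches of their sequence occur at several positions. The first 60 coding bases of 6 of the 16 H4 genes show this; capitals mark bases that differ from his-1, and all 16 genes encode a protein identical to that of his-1 (sequences from RefSeq, WBcel235).
his-1, chrV:16042520-16042579, plus strand: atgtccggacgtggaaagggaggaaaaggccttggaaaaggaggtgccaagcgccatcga
his-60, chrIV:7487933-7487992, minus strand: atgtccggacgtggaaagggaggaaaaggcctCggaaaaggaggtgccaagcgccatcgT
his-31, chrIV:8333924-8333983, minus strand: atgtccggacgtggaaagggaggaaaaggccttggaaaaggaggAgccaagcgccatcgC
his-14, chrII:13819878-13819937, minus strand: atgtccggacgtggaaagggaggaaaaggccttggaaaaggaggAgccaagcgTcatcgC
his-28, chrV:8889740-8889799, minus strand: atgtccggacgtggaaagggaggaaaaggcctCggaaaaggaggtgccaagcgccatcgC
his-37, chrV:9547134-9547193, plus strand: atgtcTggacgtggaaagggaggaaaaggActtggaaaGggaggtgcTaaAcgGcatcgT
The his-14 bases occur 3 times in the genome and the his-28 bases 4 times, while those of the other genes shown occur at 1 position each. The his-37 gene, the only H4 gene with an intron, differs at 7 of the 60 bases, against 2 in his-60, his-31 and his-28 and 3 in his-14.

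Members were typed by the identity of their protein to those of his-1, his-2, his-3, his-4 and his-24, and comprised 20 H3, 17 H2A, 17 H2B and 16 H4 genes, the H1 gene his-24 and his-73, which reached no type at 40% identity. They formed 14 clusters with 67 genes, in which neighbours lie within 10000 bp, and 5 single genes. Their lengths ran from 141 to 1576 bp with a median of 384 bp, and 64 had a single exon.

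A gene counted as called when the summit of a call lay in the gene or within 500 bp of it. Replicate 1 had 21050 calls in all and replicate 2 had 14257, the pooled reads gave 670 and the optimal set, selected by the irreproducible discovery rate (IDR) procedure, had 48 peaks. The number of reads behind the lists is unknown. The 2 replicate lists are permissive, with background calls included for that procedure. The transgene's own gene, F55B11.4 on chromosome IV at 14429572 to 14430920, had 4 calls in replicate 1, 1 in replicate 2 and 1 in the pooled list, and no optimal peak.

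In replicate 1, 12 of 72 histone genes were called (16.7%, exact 95% interval 8.92 to 27.3), against 27.7% of the 1586 other protein-coding genes of like length (25.5 to 30.0). Like length means 312 to 707 bp, the range between the 5th and the 95th percentile of the members. Replicate 2 called 15 histone genes (20.8%, 12.2 to 32.02), against 22.3% of genes of like length (20.3 to 24.5). Calls in both replicates were found at 7 histone genes (9.72%, 3.999 to 19.0), against 10.2% of genes of like length (8.77 to 11.8). The intervals overlapped in all 3 comparisons, and no test was made, because neighbouring histone genes share calls and are not independent. The intervals cover the counting of genes only.

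The pooled list called 0 of 72 histone genes, an exact upper limit of 4.99%, against 29 of 1586 genes of like length, or 1.83%. The optimal set called 0 of 72 histone genes and 0% of the genes of like length. Of the ribosomal protein genes, which encode another set of abundant proteins, 42 of 78 were called in replicate 1 (53.8%, 42.2 to 65.2), with 41 in replicate 2 (52.6%, 40.9 to 64.0), 25 in both (32.1%, 21.9 to 43.6) and 6 in the pooled list (7.69%, 2.88 to 15.99). In replicate 1 and in both, these shares were near those of all 19973 protein-coding genes, which were 53.6% and 29.2%. They were above those of all genes in replicate 2 (42.5%) and in the pooled list (3.20%), though these 2 intervals include the share of all genes. Neither group is matched to the histone genes for length. The plot of shares by gene group shows these values.

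**Figure D1:**
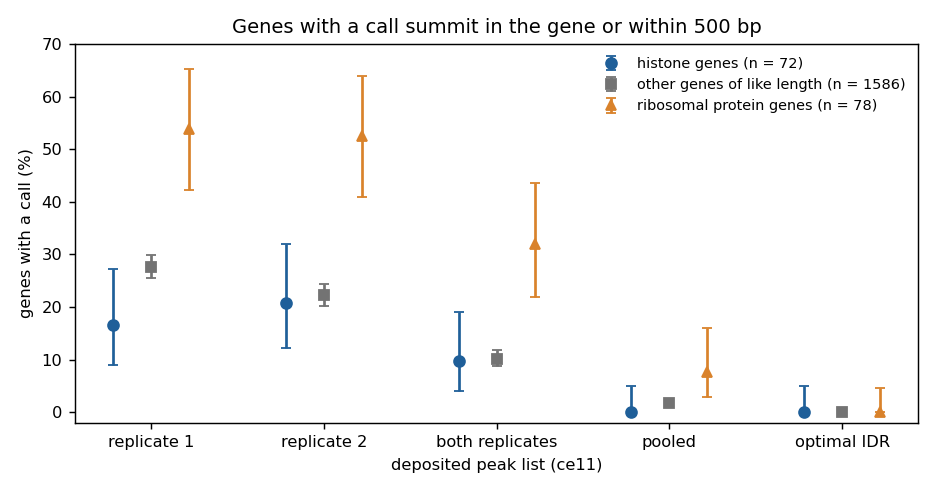
Percent of genes with a call summit in the gene or within 500 bp, for histone genes, other genes of like length and ribosomal protein genes in each deposited list; points are shares and bars exact 95% intervals. Histone genes lie at 16.7% and 20.8% in the replicates and at 0 in the pooled and optimal lists.

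The repeats moved with these counts. For each gene, the share of 32-base words that occur more than once in the genome on either strand was counted over the gene and 500 bp to either side. The median was 66.6% over the histone genes, against 0.317% over genes of like length, and 20 histone genes had a window that was repeated throughout. Of the 40 histone genes with at least 50% repeated words, 0 were called in replicate 1 and 1, his-47, was called in replicate 2, against 3 and 2 of the 100 such genes of like length. Counted over the gene alone, 53 histone genes had at least 50% repeated words. At least 1 replicate called 6 of these (11.3%), against 8.33% of 180 such genes of like length.

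Among the 32 histone genes with under 50% repeated words in the window, 12 were called in replicate 1 (37.5%, 21.1 to 56.3), against 29.3% of 1486 genes of like length (27.0 to 31.7). Replicate 2 called 14 of them (43.8%, 26.4 to 62.3), against 23.7% (21.6 to 25.9). Both replicates called 7 (21.9%, 9.28 to 39.97), against 10.9% (9.36 to 12.6). The order of histone genes and genes of like length in each replicate is therefore the reverse of that over all members. With genes of 312 to 707 bp as the background, the 2 intervals for replicate 2 do not overlap. These 32 members include longer genes, and against the 6943 other genes within their own lengths of 141 to 1576 bp the shares were 37.5% against 37.8% in replicate 1, 43.8% against 27.8% in replicate 2 and 21.9% against 14.3% in both. With this background the histone interval for replicate 2 contains the background share. Those 6943 genes had a median length of 1030 bp, against 384 bp for the histone genes. In the pooled list 0 of these 32 histone genes were called, against 1.95% of the genes of like length. This restriction by window was chosen after seeing the data. The sources used here do not say how reads with several equal positions were treated.

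**Figure D2:**
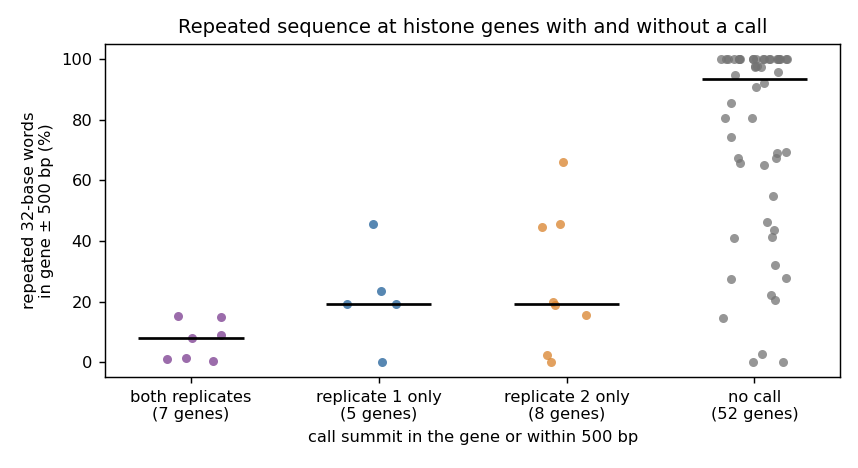
Share of repeated 32-base words in each histone gene and 500 bp to either side (%), by whether the gene had a call in both replicates, in replicate 1 only, in replicate 2 only or in neither; each point is a gene and lines are medians. The medians were 7.88%, 19.2%, 19.4% and 93.6%.

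The genes called in both replicates were his-24, his-41, his-59, his-60, his-67, his-68 and his-72. These 7 had 0.401% to 15.4% repeated words, and the 52 genes with no call had a median of 93.6%. However, 13 of the 32 genes with under 50% repeated words had no call, against 860 of 1486 such genes of like length. The 13 include his-69 and his-70, neighbouring H3 genes on chromosome III with 2.66% and 0.0728%, and his-71, an H3.3 gene on X with 0.0603%. A replicate 1 summit lay 529 bp from his-71, just outside the window. Genes with little repetition thus stood both among the called and among the uncalled.

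Calls were spread over 12 of the 19 loci, 9 in replicate 1 and 8 in replicate 2, with 5 loci called in both: the clusters of his-67 and his-68 on I, of his-61 to his-59 on IV and of his-35 to his-37 on V, and the single genes his-72 and his-24. The largest cluster, 13 genes from his-16 to his-42 on chromosome II at 13817760 to 13828697, had no call in either replicate, and its windows had a median of 100% repeated words. Similarly, the 8 genes from his-28 to his-18 and the 6 genes from his-50 to his-53 on V had none, with medians of 100%. The 4 genes from his-55 to his-57 on IV had none at a median of 83.4%. Clusters called in replicate 2 alone were his-29 to his-34 and his-47 to his-45 on IV and his-8 to his-39 on V. Called in replicate 1 alone were the clusters his-66 to his-64 on IV, his-4 to his-1 on V and his-38 to his-40 on X.

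**Figure D3:**
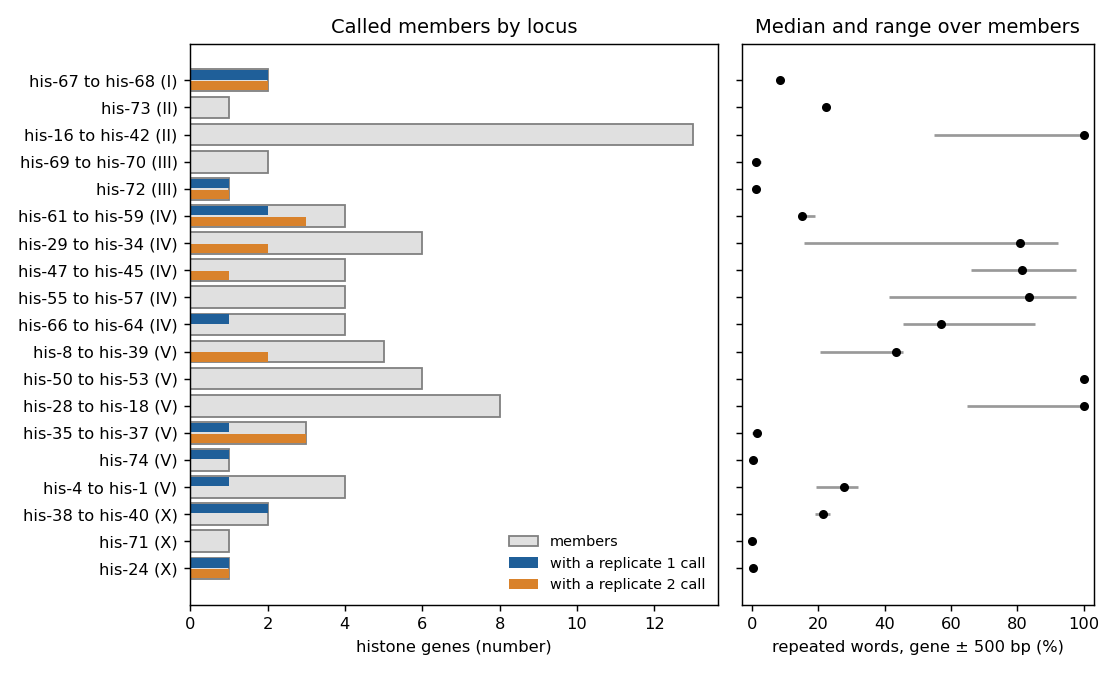
Left, number of histone genes at each locus (grey) and of those with a call in replicate 1 (blue) or replicate 2 (orange), with the chromosome in brackets; right, median and range over members of the share of repeated 32-base words in the gene and 500 bp to either side (%). The 13-gene cluster on II, with a median of 100%, has no coloured bar.

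By type, 7 of 16 H4 (43.75%), 5 of 20 H3 (25%), 5 of 17 H2A (29.4%) and 2 of 17 H2B genes (11.8%) were called in at least 1 replicate. So were the H1 gene his-24, 39.8% of genes of like length and 66.9% of all protein-coding genes. In replicate 1 the called core histone genes were 5 H4, 4 H3, 1 H2A and 1 H2B genes, and in replicate 2 they were 4, 3, 5 and 2. The exact intervals of the 4 core types overlapped in either replicate. Of the 8 genes with several exons, 4 were called in replicate 1, 5 in replicate 2 and 3 in both (50%, 62.5% and 37.5%). All protein-coding genes were at 53.6%, 42.5% and 29.2%, and genes of like length at 27.7%, 22.3% and 10.2%. Other genes of 141 to 1576 bp were at 36.55%, 26.9% and 13.8%. None of these backgrounds is matched to the lengths of the 8 genes. Of the 64 genes with a single exon, 8, 10 and 4 were called (12.5%, 15.6% and 6.25%). The 2 groups differ in length, 503 to 1576 bp against 141 to 411 bp. They also differ in repeats, as all genes with several exons but his-57 had at most 2.44% repeated words in the window.

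No call at a histone gene was among the strongest 1% of its list. At genes of like length, 1.41% of calls in replicate 1 and 1.04% in replicate 2 were. Replicate 1 had 13 distinct calls at members, with signal values of 7.13 to 14.7, and replicate 2 had 13, with 10.3 to 20.9. The signal value is the authors' score of peak strength and is compared only within a list, where the highest nuclear values were 40.3 in replicate 1 and 65.3 in replicate 2. The q-values of the calls were 0.309 to 0.927 in replicate 1 and 0.384 to 0.959 in replicate 2. Ranked by signal value, with 0% the strongest, their median rank was 37.7% in replicate 1, against 48.5% for calls at genes of like length, and 59.5% in replicate 2, against 45.9%. The 2 replicates thus stood on opposite sides of the genes of like length. Among the strongest 10% of their list were 1 call in replicate 1 (7.69%) and 2 in replicate 2 (15.4%). At genes of like length these shares were 13.5% and 10.4% of calls.

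**Figure D4:**
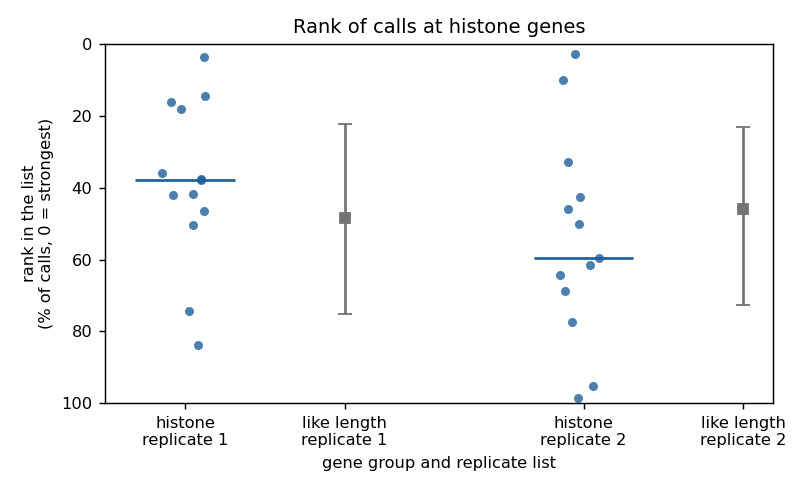
Rank of each call at a histone gene within its replicate's list (% of calls, 0 the strongest, axis reversed), with the median as a line, beside the median and quartiles of calls at other genes of like length. Histone calls have medians of 37.7% in replicate 1 and 59.5% in replicate 2.

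The highest-ranked call at a member was between his-60, an H4 gene, and his-59, an H3 gene, which are transcribed away from each other on chromosome IV. In replicate 2 its summit at 7488038 had a signal value of 20.9 and a rank of 2.75%, and lay 46 bp upstream of his-60. Replicate 1 had 2 calls that overlapped it, with summits at 7487891 inside his-60 (8.56, rank 50.5%) and 55 bp downstream of his-60 (9.45, rank 36.0%). The nearer replicate 1 summit was 147 bp from that of replicate 2.

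A replicate 2 call of the same arrangement lay between his-31, an H4 gene, and his-32, an H3 gene, with its summit at 8334261, 44 bp upstream of his-32. Its signal value was 13.8 and its rank 32.9%. Replicate 1 had no summit within 9325 bp of it. The sequences between these 2 pairs, 40 bp in from each gene and with capitals on the longest word that both hold, are shown because they hold the only H3-H4 intervals with a summit.
his-60 and his-59, chrIV:7488033-7488208, plus strand, WBcel235: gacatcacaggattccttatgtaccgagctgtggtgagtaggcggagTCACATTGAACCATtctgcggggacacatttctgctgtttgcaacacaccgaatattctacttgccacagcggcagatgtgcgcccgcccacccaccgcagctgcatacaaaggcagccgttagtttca
his-31 and his-32, chrIV:8334024-8334264, plus strand, WBcel235: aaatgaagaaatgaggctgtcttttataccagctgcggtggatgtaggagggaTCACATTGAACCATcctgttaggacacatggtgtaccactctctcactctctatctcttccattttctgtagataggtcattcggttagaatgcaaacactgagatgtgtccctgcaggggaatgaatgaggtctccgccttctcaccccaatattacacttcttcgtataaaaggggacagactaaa
The shared word is 14 bases long, and the replicate 2 summits lay at base 6 and base 238 of these stretches. Of the 14 H3-H4 intervals, only these 2 hold the word exactly, and 8 hold it with at most 2 differences. None of the 16 H2A-H2B intervals holds it with at most 2 differences. From 250 bp before to 50 bp after the gene start, on both strands, 17 of 72 histone genes hold it with at most 2 differences (23.6%), as do 0.371% of all protein-coding genes. The word was picked from 2 histone intervals, the 17 genes include the 4 next to them, and clusters are copies of each other, so the choice of the word sets this difference and nothing is read from it. Of the 6 intervals with 2 differences, none held a summit.

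Over all 31 pairs of histone genes transcribed away from each other, with 227 to 368 bp between them, a summit lay between the genes at 1 pair in replicate 1 and at 3 in replicate 2. The pair in replicate 1, his-67 (H4) and his-68 (H2A) on chromosome I, was also called in replicate 2. Its summits had signal values of 8.78 (rank 46.45%) in replicate 1 and 12.02 (rank 59.5%) in replicate 2, 254 bp apart. A further replicate 2 summit in the coding exon of his-67 had 17.3, a rank of 9.95%.

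Promoters, again from 250 bp before to 50 bp after the gene start, held the word TATAAA, on either strand, at 47 of 72 histone genes (65.3%), against 49.5% of genes of like length and 37.9% of all protein-coding genes. The word CCAAT stood in the promoters of 54.2% of histone genes, against 47.5% of genes of like length and 45.5% of all protein-coding genes. Most members stand in the 31 pairs above, with 227 to 368 bp between the genes, so the promoters of partners overlap. Clusters are also copies of each other. The 72 promoters are therefore not independent, and nothing is read from these differences.

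The strongest replicate 1 call at a member, with a signal value of 14.7 and a rank of 3.66%, had its summit at 9546560 on V, 296 bp downstream of the H2B gene his-41 and in a coding exon of C50F4.6, which RefSeq annotates as a cold-shock protein. A replicate 2 call overlapped it, with its summit in a coding exon of his-41 (13.1, rank 42.7%), and a replicate 1 summit at 9545794 lay in an intron of his-41 (9.33, rank 37.7%). The neighbours of his-41, his-35 (H2A) and his-37 (H4), were called in replicate 2 only, at 141 bp downstream (11.1) and 448 bp downstream (11.5). This locus had a median of 1.53% repeated words and all 3 genes were called in replicate 2.

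The 5 single genes were his-24, his-71, his-72, his-73 and his-74. At his-24, the H1 gene on X, replicate 1 had summits 110 bp and 323 bp downstream (11.3 and 9.33, ranks 16.1% and 37.7%), and replicate 2 had a summit in the coding sequence at 14490205 (11.9, rank 61.6%). The summits of the replicates were at least 1024 bp apart, so the gene was called in both but not at the same place. At his-72, an H3.3 gene on III, replicate 1 had a summit in a coding exon at 12368074 (11.1, rank 18.1%) and another in an intron (7.47, rank 74.4%), and replicate 2 had a summit in an intron (12.8, rank 46.0%), 252 bp from the nearer one. All 3 lay within 500 bp of a snoRNA gene, Y49E10.36; its part in them was not tested. The 51 bases around a summit in each gene, on the gene's strand and with 11 bases at the summit in capitals, show where in the coding sequence these calls stood.
his-72 replicate 1 summit, chrIII:12368049-12368099, minus strand, WBcel235: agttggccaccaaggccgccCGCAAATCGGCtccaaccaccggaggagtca
his-24 replicate 2 summit, chrX:14490180-14490230, plus strand, WBcel235: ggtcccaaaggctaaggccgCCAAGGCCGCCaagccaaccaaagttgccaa
Around them the GC content was 64.7% and 60.8%, and each stretch occurs at 1 position in the genome. At his-74, an H3 gene on V, replicate 1 had a summit 481 bp downstream (9.07, rank 41.7%), in a coding exon of ccch-3, and replicate 2 had none. The genes his-71 and his-73 had no call, and the nearest pooled summit to any member was 1248 bp from his-73. The median distance from a member to the nearest pooled summit was 80.9 kb.

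The other strong replicate 1 call was 327 bp downstream of the H4 gene his-64 (11.6, rank 14.45%). Of the 13 replicate 1 calls, 5 had summits inside a member, 1 upstream and 7 downstream; in replicate 2 these were 6, 3 and 4. By annotation, 5 replicate 1 summits were in coding exons, 2 in introns, 5 between genes and 1 in a non-coding gene, while replicate 2 had 6 in coding exons, 1 in an intron and 6 between genes. The coding exons downstream of his-41 and his-74 in replicate 1 and of his-37 in replicate 2 belong to neighbours, C50F4.6, ccch-3 and nstp-10. The farthest summit counted in replicate 1 lay 481 bp from his-74, and the nearest one counted for no member lay 529 bp from his-71. A summit 506 bp from his-35 was counted for his-41 only. In replicate 2 the farthest counted lay 448 bp from his-37 and the nearest not counted 712 bp from his-42.

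**Figure D5:**
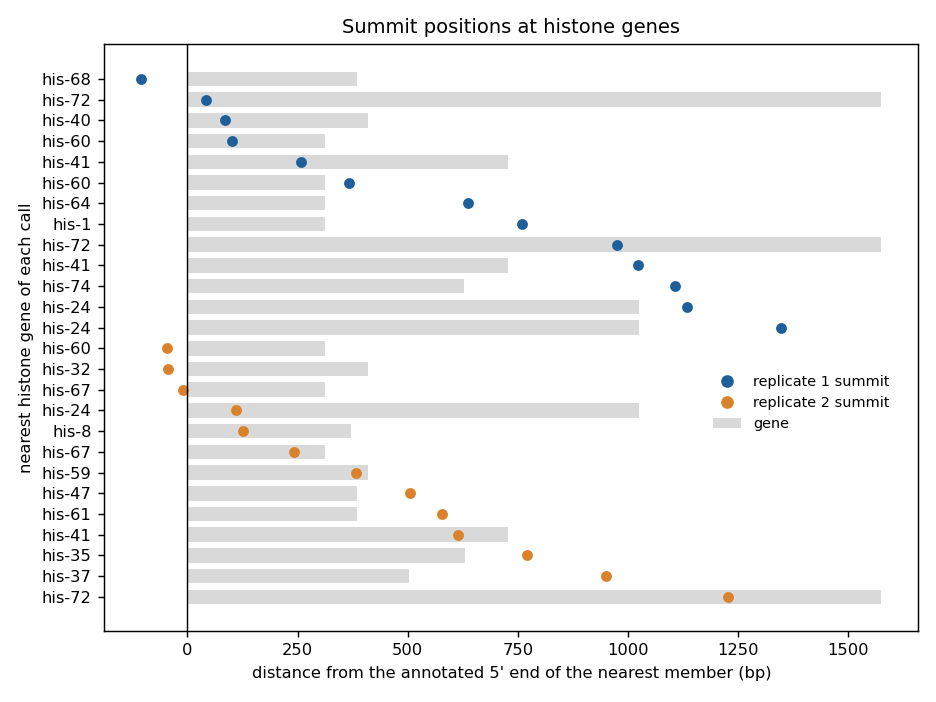
Summit of each call at a histone gene, in bp from the annotated 5' end of the nearest member, for replicate 1 (blue) and replicate 2 (orange), with the gene as a grey bar. Summits lie upstream at 1 call of replicate 1 and 3 of replicate 2.

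Of the 13 replicate 1 calls at histone genes, 6 overlapped a replicate 2 call (46.2%, 19.2 to 74.9), against 29.2% of 497 calls at genes of like length (25.2 to 33.4) and 24.05% of all nuclear replicate 1 calls. The intervals overlap. With an overlap of at least 50% of the shorter call, or with summits within 250 bp, only 1 of the 13 was shared (7.69%, 0.195 to 36.0), the one inside his-60. At genes of like length 21.7% of calls were shared with the 50% overlap (18.2 to 25.6) and 22.1% with summits within 250 bp (18.6 to 26.0), and over all nuclear calls the shares were 17.8% and 18.1%. The histone share was thus above that at genes of like length under the 1 bp rule and below it under both stricter rules, with overlapping intervals each time.

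A list of 26 other histone-related genes was counted by the same rule. Of these, 14 were called in replicate 1 (53.8%), 13 in replicate 2 (50%), 8 in both (30.8%) and 1 in the pooled list (3.85%). All protein-coding genes were at 53.6%, 42.5%, 29.2% and 3.20%. Of the 11 variant and linker histone genes, 7 were called in replicate 1, 5 in replicate 2 and 3 in both. The linker histone gene hil-3 was the only listed gene with a pooled call (40.5, rank 12.7%), with 16.5 (rank 1.63%) in replicate 1 and 20.2 (rank 3.64%) in replicate 2. Among the 14 chaperone and assembly genes, which load histones onto DNA, 7 were called in replicate 1 and 8 in replicate 2, with 5 in both and none in the pooled list. Among them, lin-53, a histone-binding protein, had 20.7 (rank 2.99%) in replicate 2 and no call in replicate 1. cdl-1, which encodes the protein that binds the stem-loop of histone mRNA, had no call. The listed genes are longer, with a median of 1578.5 bp, against 384 bp for the members, so their counts are not set against the members'.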

How the data were processed

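Whole worms of 1 group gave 2 replicate libraries, and the authors deposited permissive calls per replicate, pooled calls and an optimal IDR set for ce11. The deposited signal value is a score with no stated scale, used only within a list, and the deposited q-values were read as −log10 values. Each permissive list was made from an immunoprecipitated and 1 control library, per the deposited notes; the sources used here name no aligner or peak caller. The ce10 lists were not used.

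Genes came from Ensembl release 115 on WBcel235 (ce11). Ensembl gives 36 members a symbol shared with another, so members are named by the unique RefSeq symbol at the same coordinates; genome and coding sequences came from RefSeq. Python 3.11.15, pandas 2.3.3, numpy 2.4.6, scipy 1.17.1 and Biopython 1.88 were used, and the gene-to-call counting was tested on simulated data. Shares carry exact Clopper-Pearson intervals and no test was made. Named were members with pooled or optimal calls, those at the 5 strongest calls per replicate, single genes, clusters, members called in both replicates and F55B11.4; the remaining names were chosen after their values were seen. Members, lists and rules were chosen with earlier results of these data known, and the shared word was chosen after seeing the data. Summit windows, overlap, list length, repeats and single replicates were varied.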

Additional observations from a re-analysis of the deposited data

How the results depend on the processing

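No paired analysis was possible because the 2 replicates form 1 group. No pooled or optimal call lay at a histone gene under any alternative tried for those lists. Of 94 alternative values, 47 moved by more than the counting interval or the 1.5-fold limit; single shares have no sign to reverse, so the order of the groups is given instead. With the summit in the gene itself, the shares (replicate 1, replicate 2, both) were 5.56%, 8.33%, 2.78% of histone genes, against 11.9%, 8.95%, 2.33% of genes of like length. With the summit within 250 bp, the shares (replicate 1, replicate 2, both) were 8.33%, 15.3%, 5.56% of histone genes, against 20.5%, 16.5%, 6.37% of genes of like length. With the summit within 1000 bp, the shares (replicate 1, replicate 2, both) were 27.8%, 27.8%, 13.9% of histone genes, against 40.1%, 31.8%, 16.7% of genes of like length. With any overlap of the called interval and the gene, the shares (replicate 1, replicate 2, both) were 8.33%, 15.3%, 5.56% of histone genes, against 20.2%, 16.1%, 6.24% of genes of like length. With the stronger 50% of each list, the shares (replicate 1, replicate 2, both) were 12.5%, 9.72%, 5.56% of histone genes, against 15.1%, 12.3%, 3.85% of genes of like length. With the replicate 1 list cut to the length of replicate 2, the shares (replicate 1, both) were 13.9%, 9.72% of histone genes, against 19%, 7.12% of genes of like length. Per locus, the histone shares were 47.4%, 42.1% and 26.3% of 19 loci. A locus holds up to 13 genes, so these shares are not comparable with those of single genes. Among members with under 50% repeated words in the gene itself, the shares were 52.6%, 57.9% and 36.8%. Such genes of like length were at 30.5%, 24.8% and 11.45%. Other genes within these members' own lengths of 312 to 1576 bp were at 39.1%, 28.85% and 14.9%. With under 50% in the window, the shares were 37.5%, 43.8% and 21.9% of histone genes. Such genes of like length were at 29.3%, 23.7% and 10.9%, and other genes within these members' own lengths of 141 to 1576 bp at 37.8%, 27.8% and 14.3%. With lengths between the lowest and the highest member, the other genes were at 36.5%, 26.9% and 13.8%. Pooled shares of genes of like length were 0.757% in the gene itself and 0.82% in the stronger 50%. With 1 replicate left out, the share called was 16.7% to 20.8% of histone genes, against 22.3% to 27.7% of genes of like length. Distinct calls with the summit in the gene itself numbered 5 in replicate 1 and 6 in replicate 2. The shared replicate 1 calls were 7.69% under either stricter overlap. Both repeated-word restrictions turned the order of histone genes and genes of like length in each replicate and in both. Against other genes of 141 to 1576 bp, the restriction by window did not turn it in replicate 1 (37.5% against 37.8%). For calls in both replicates the order also turned with the summit in the gene itself, with the stronger 50% of each list and with the cut list. The cause was not tested. Read depth was not given, so these shares limit calls, not binding.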
